A study of Mus musculus with 6 samples.

Results

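Genomic imprinting leaves a gene active on only the maternal or only the paternal copy, and CTCF peaks at 7 imprinted stretches of the mouse genome are described here in thymic regulatory T cells. The stretches were windows of fixed position around 9 named genes (H19, Igf2, Kcnq1ot1, Dlk1, Meg3, Peg3, Gnas, Grb10 and Rasgrf1), and every peak that overlapped a window was taken. They held 170 of the 172581 peaks on chromosomes 1 to 19, X and Y of 6 lists. Overlapping peaks of all lists were merged, which put these peaks into 94 of 94951 regions. The libraries were made by CUT&RUN, a method that cuts and recovers the DNA held by an antibody-bound protein. There were 3 libraries of regulatory T cells from thymus of Cgas knockout (Cgas_KO) animals, which lack the DNA sensor cGAS, and 3 from wild-type (WT) animals. The labels do not give strain, age, the reach of the deletion within the body or the source of each replicate. The p-values therefore measure the spread between these libraries, which may be technical.

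An imprinted locus is marked by DNA methylation that one parent's gamete laid down at an imprinting control region. CTCF is a zinc-finger protein that anchors chromatin loops and can insulate a promoter from an enhancer. At the control region between H19 and Igf2 it binds the unmethylated maternal copy and keeps Igf2 from enhancers beyond H19, while methylation keeps it off the paternal copy. It is also known to bind the unmethylated copy of the Rasgrf1 control region. The peak lists do not tell the parental copies apart. All peak positions are in mm39, counted from 1. No gene annotation or sequence of mm39 was used, so genes, exons and control regions were not placed within the windows. For the same reason the cell type and the genotype could not be checked against marker genes or against Cgas.

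The windows covered 2.12 Mb in all. They were chromosome 7 from 142000000 to 142320000 (H19-Igf2), chromosome 9 from 89650000 to 89980000 (Rasgrf1), chromosome 7 from 142600000 to 143000000 (Kcnq1ot1) and chromosome 12 from 109350000 to 109650000 (Dlk1-Meg3). The others were chromosome 11 from 11780000 to 12050000 (Grb10), chromosome 2 from 174000000 to 174250000 (Gnas) and chromosome 7 from 6600000 to 6850000 (Peg3). In a RefSeq gene table of the older build GRCm38.p6, H19 was next to Mrpl23 and Igf2, and Igf2 was followed by Ins2 and Th. Kcnq1ot1, a long noncoding RNA transcribed from within Kcnq1, was followed by Cdkn1c, an imprinted inhibitor of the cell cycle. Dlk1 and Meg3 were followed by Rtl1 and Dio3, Peg3 lay between Zim1 and Usp29, and Grb10 lay between Ddc and Cobl.

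RefSeq promoters of GRCm38.p6, each from 250 bases before to 50 after a start site, were at hand for 8 of the 9 genes, 16 promoters in all. The CTCF consensus, searched on both strands, was in 0 of the 16 and in 0.557% of 32851 promoters. A shorter string like the CTCF motif, GGNGGCAG with N for any base, was in 4 of the 16, at Igf2, Rasgrf1, Grb10 and Gnas, and in 12.6% of all. It is not a part of the longer form. These 4 promoters are shown because they hold a match, which stands in capitals and can lie on either strand. Igf2 is chr7:142658755-142659054 (minus strand), Rasgrf1 chr9:89909525-89909824 (plus strand), Grb10 chr11:12037371-12037670 (minus strand) and Gnas chr2:174284070-174284369 (plus strand), all in GRCm38.p6. These 2 forms were kept out of 18 that were searched with the matches of the 9 genes in view, 15 of them strings like the CTCF motif and 3 like that of YY1, another zinc-finger protein known to bind imprinted genes. Of the 18, which include 1 pair of reverse complements, 9 were in none of the 16 promoters, the 3 like YY1 among them, and the loosest, CCCTC, was in 12 of 16 and in 66.0% of all promoters. The choice of form thus set how many promoters matched, and nothing is read from the 4 against the 12.6%. Whether a peak covers any of them was not determined, since the builds differ. A match is a string of letters and not a measured site.
Igf2: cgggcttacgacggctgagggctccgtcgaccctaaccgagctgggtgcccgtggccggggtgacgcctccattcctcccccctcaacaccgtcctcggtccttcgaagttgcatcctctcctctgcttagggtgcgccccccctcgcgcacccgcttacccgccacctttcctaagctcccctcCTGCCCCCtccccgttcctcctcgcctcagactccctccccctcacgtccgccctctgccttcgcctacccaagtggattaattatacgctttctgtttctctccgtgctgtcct
Rasgrf1: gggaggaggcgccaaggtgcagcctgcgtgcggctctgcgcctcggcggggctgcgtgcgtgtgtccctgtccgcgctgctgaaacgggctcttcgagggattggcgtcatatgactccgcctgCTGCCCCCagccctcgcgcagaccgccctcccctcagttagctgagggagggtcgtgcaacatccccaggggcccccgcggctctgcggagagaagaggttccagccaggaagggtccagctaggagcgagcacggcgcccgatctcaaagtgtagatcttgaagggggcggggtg
Grb10: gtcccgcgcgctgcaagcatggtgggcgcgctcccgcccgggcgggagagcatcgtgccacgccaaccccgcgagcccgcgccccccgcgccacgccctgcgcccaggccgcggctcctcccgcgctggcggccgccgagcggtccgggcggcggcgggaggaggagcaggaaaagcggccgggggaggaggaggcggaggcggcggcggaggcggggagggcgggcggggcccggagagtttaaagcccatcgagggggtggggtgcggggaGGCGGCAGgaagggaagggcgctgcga
Gnas: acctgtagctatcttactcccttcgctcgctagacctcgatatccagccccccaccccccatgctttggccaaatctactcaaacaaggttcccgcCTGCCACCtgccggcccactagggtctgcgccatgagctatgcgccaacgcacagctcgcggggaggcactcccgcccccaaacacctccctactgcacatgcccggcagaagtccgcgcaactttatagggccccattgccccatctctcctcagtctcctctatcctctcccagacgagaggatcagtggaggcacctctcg

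The lists held 27128 to 31707 peaks on the main chromosomes, and their median peak was 2569 to 3607 bp wide. Cgas_KO replicate 3 had the most and the narrowest peaks. The height of a peak is its maximum signal, which was a whole multiple of 1 step in each list. A step was worth 0.117, 0.117 and 0.120 signal units in Cgas_KO and 0.190, 0.212 and 0.195 in WT. Neither the meaning of a step nor the scaling of the signal is stated, and the depth of the libraries is unknown. Height is therefore compared as the percentile within its own list, where 100 is the tallest peak, and steps are given as values. No exact permutation test on 3 against 3 libraries can go below p = 0.1.

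Binding was spread unevenly over the 7 windows, densest at H19-Igf2 and sparsest at Peg3, and no window had peak counts that separated the genotypes. All windows together held 27, 21 and 32 peaks in the Cgas_KO lists and 24, 34 and 32 in the WT lists. That is 1.26 peaks per 100 kb in Cgas_KO and 1.42 in WT, against 1.17 in Cgas_KO and 1.10 in WT over 8550 tiles of 300 kb with a peak in any list. H19-Igf2 had 8, 4 and 7 peaks in Cgas_KO and 7, 10 and 7 in WT (exact permutation p = 0.6). Peg3, which encodes a zinc-finger protein made from the paternal copy, had 1, 1 and 0 peaks in Cgas_KO and 2, 2 and 1 in WT (exact permutation p = 0.3). The counts overlapped or touched between genotypes in all 7 windows, where 3.85% of tiles were higher and 2.21% lower in Cgas_KO without overlap, 6.06% in all. The share of a window covered by peaks also overlapped between genotypes in all 7. Over the tiles it was higher in Cgas_KO without overlap in 4.08% and lower in 6.4%, 10.5% in all. H19-Igf2 was covered at 6.39% ± 3.04 in Cgas_KO and 8.59% ± 1.60 in WT (SD, n = 3; exact permutation p = 0.3). That difference of -2.20 percentage points was -0.93 without Cgas_KO replicate 2 and -3.89 without Cgas_KO replicate 1 (exact permutation p = 0.1, the smallest possible for 2 against 3).

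**Figure D1:**
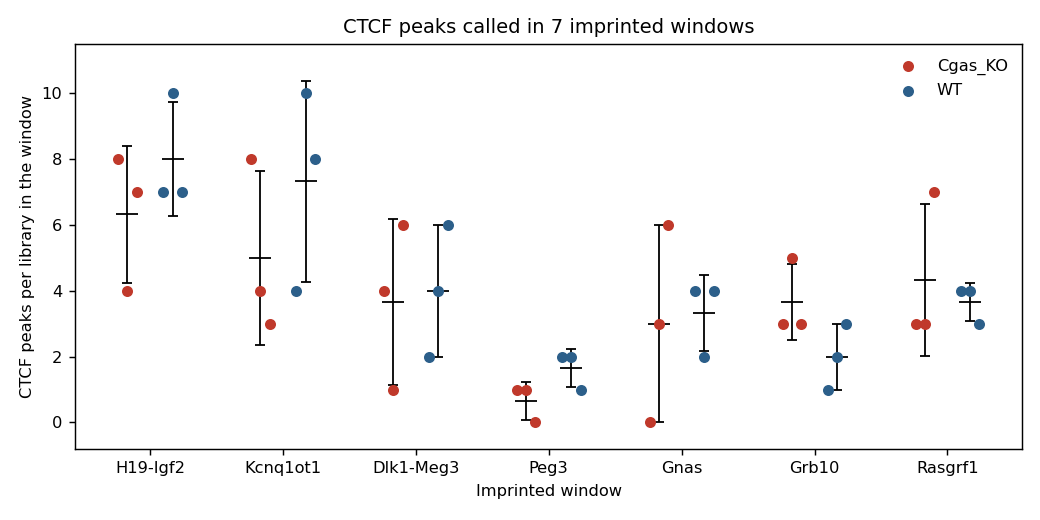
Number of CTCF peaks per library (vertical axis) in each of the 7 imprinted windows (horizontal axis), with 1 point per library, Cgas_KO in red and WT in blue, and the mean ± SD in black. H19-Igf2 had 4 to 10 peaks per library and Peg3 0 to 2, and the genotypes overlapped or touched in every window.

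Most sites in these windows were seen in a single library, as over the genome. Of the 94 regions, 63 (67.0%) were called in 1 list, 13 in 2, 6 in 3, 3 in 4, 3 in 5 and 6 (6.38%) in all 6. Over the genome, 69.9% were called in 1 list and 5.16% in all 6. No region of the windows was called in all 3 lists of one genotype and in none of the other. The background for that is low, at 0.33% of all regions for Cgas_KO and 0.377% for WT. Where the peaks of a list together had to cover 50% of a region, 2 regions of the windows were in all 6 lists, as were 0.64% of all regions. At that coverage 3 regions of the windows were called in all WT lists and no Cgas_KO list and 0 the other way round, where the shares of all regions were 0.378% and 0.209%. All 3 did hold Cgas_KO peaks, which covered less than 50% of the region. The shared Rasgrf1 region was among them. It was 4588 bp wide, the width of its WT replicate 2 peak, and its Cgas_KO peaks were 2177, 2109 and 1499 bp wide. Peaks of the regions in all 6 lists had a median percentile of 96.1, against 84.3 for such peaks over the genome. The genome value pools every peak of such regions, also where a library had several in 1 region. With only the tallest peak per library and region, the genome medians were 87.1 to 88.9 by library. Peaks of regions in 1 list had a median percentile of 30.3 in the windows and 28.1 over the genome. The 6 shared regions lay in 5 windows. H19-Igf2 had 2, Kcnq1ot1, Dlk1-Meg3, Grb10 and Rasgrf1 had 1 each, and Gnas and Peg3 had 0.

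Whether the shared regions differed in relative height was tested with limma on normal scores of ranks over all 4896 regions in all 6 lists. None of the 6 passed a Benjamini-Hochberg adjusted limma p of 0.05, and over the genome 0% did. At an unadjusted limma p under 0.05 there was 1 of the 6, at Grb10, lower in Cgas_KO, and 3.84% of all regions were lower and 5.58% higher at that level. The median difference, Cgas_KO minus WT, was -0.14 normal-score units over the 6 and -0.01 over all 4896. Of the 6, 5 were lower in Cgas_KO, as were 2525 of the 4896. Percentiles did not overlap between genotypes in 2 of the 6, both lower in Cgas_KO, where 6.76% of all regions were lower and 9.4% higher without overlap. In steps, 5 of the 6 were lower in Cgas_KO with no overlap. Over all 4896 regions 34.4% were lower and 0.613% higher without overlap, and 59.9% were lower among the 1806 with a mean percentile of at least 90, a limit chosen after the data were seen. Of the 6 imprinted ones 4 reached that mean percentile, all 4 of them lower, and the regions at Grb10 and Kcnq1ot1 did not reach it. Ranked by total signal, 3 of the 6 passed an unadjusted limma p under 0.05, 2 lower in Cgas_KO (the first H19-Igf2 region and Rasgrf1) and 1 higher (Kcnq1ot1), where 4.33% of all regions were lower and 4.23% higher. On a log2 scale of height 2 of the 6 passed that level, both lower (the second H19-Igf2 region and Grb10), where 11.4% were lower and 6.94% higher. None passed after adjustment on either scale. The peaks themselves were narrower in Cgas_KO without overlap in 3 of the 6 (both H19-Igf2 regions and Rasgrf1), where 6.74% of all 4896 regions were narrower and 3.45% wider.

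**Figure D2:**
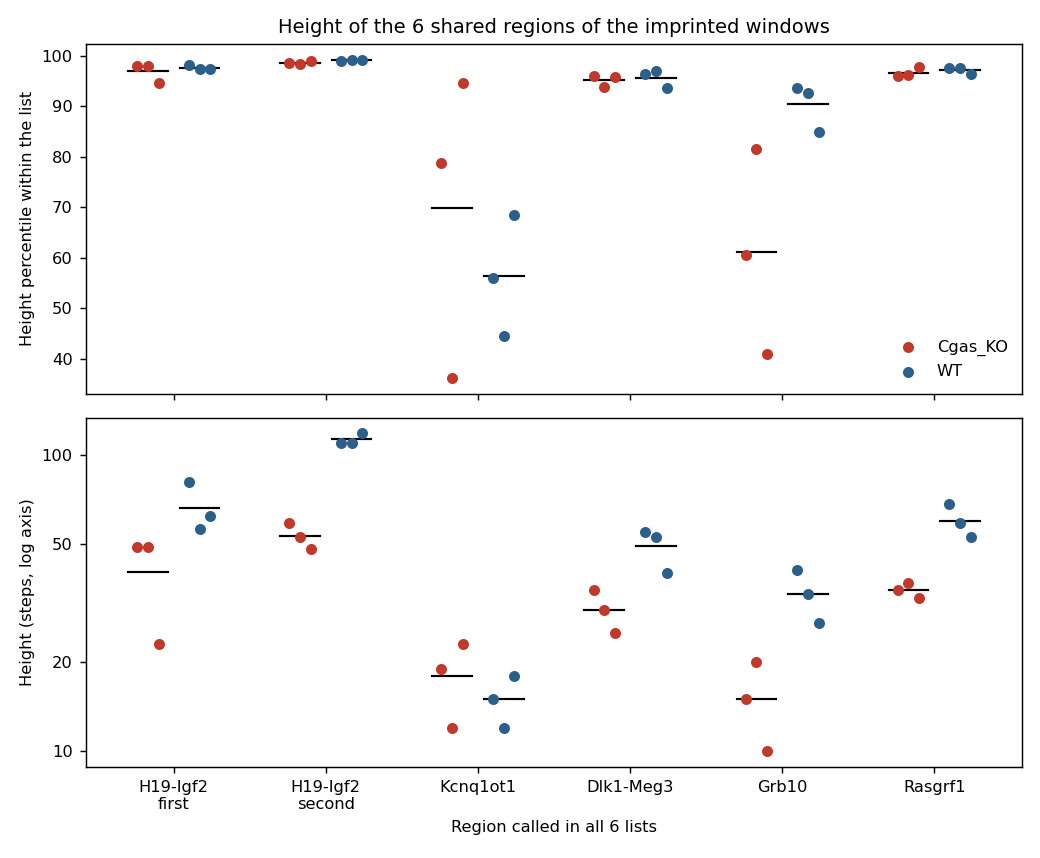
Height of the 6 regions called in all 6 lists, as percentile within the list (upper panel) and in steps on a log axis (lower panel). Each point is 1 library, Cgas_KO in red and WT in blue, and black lines are means. In percentiles the Grb10 region had 41.0 to 81.5 in Cgas_KO and 84.9 to 93.6 in WT, while both H19-Igf2 regions stayed above 94 in every library.

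The H19-Igf2 window, the textbook case of a CTCF insulator, held the tallest imprinted peaks. Its first shared region spanned chromosome 7 from 142133502 to 142137753. It was 49, 49 and 23 steps high in Cgas_KO and 81, 56 and 62 in WT. The matching percentiles were 98.1, 98.1 and 94.6 in Cgas_KO and 98.2, 97.3 and 97.3 in WT. All 6 peaks were thus among the tallest of their lists, and the percentiles of the genotypes overlapped (difference -0.14 normal-score units, SE 0.25, limma adjusted p = 0.890). Without Cgas_KO replicate 3, the lowest of the 6, the difference was 0.09 (limma adjusted p = 0.900).

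The signal of that region had its maximum at one of 2 places about 1.4 kb apart. In Cgas_KO replicates 1 and 2 the maximum lay at 142135600 to 142135710 and 142135600 to 142135670, and in WT replicate 2 at 142135605 to 142135639. In WT replicates 1 and 3 it lay at 142134156 to 142134222 and 142134342 to 142134368. In Cgas_KO replicate 3 the deposited interval ran from 142134141 to 142135704 and so reached both places. H19's control region is known to hold several CTCF sites. Whether these maxima lie on them was not determined here. A stretch of 2120 bp, from 142134045 to 142136164, was covered by the peaks of all 6 libraries. The peaks were 2737, 2623 and 2120 bp wide in Cgas_KO and 2901, 3633 and 4127 bp in WT, without overlap. Over their whole lists the median widths were 3263, 3519 and 2569 bp in Cgas_KO and 3568, 3219 and 3607 bp in WT. Why the peaks were narrower here was not tested. Ranked by total signal, which grows with width, the difference was -0.70 normal-score units (SE 0.23, limma adjusted p = 0.539).

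**Figure D3:**
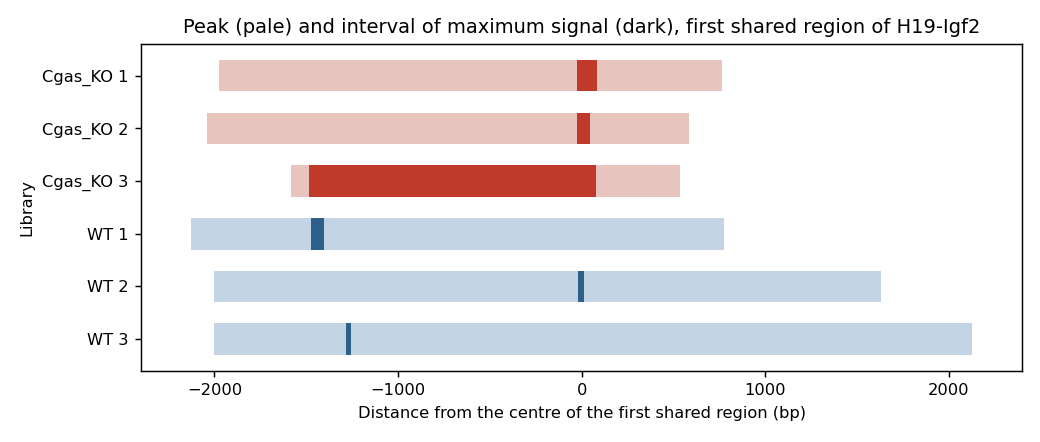
Peak (pale) and interval of maximum signal (dark) of each library in the first shared region of the H19-Igf2 window, by distance from the region's centre in bp, with Cgas_KO in red above WT in blue. The maxima fell near the centre in 3 libraries and at -1438.5 and -1272.5 bp in WT replicates 1 and 3, and in Cgas_KO replicate 3 the interval was 1564 bp wide and reached both places.

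The second shared region, 150.8 kb further along at 142288526 to 142294330, was the tallest of all 94. It was 59, 53 and 48 steps high in Cgas_KO and 110, 110 and 118 in WT. Its percentiles were 98.6, 98.3 and 98.9 in Cgas_KO and 99.0, 99.2 and 99.1 in WT. The genotypes did not overlap, yet the gap was under 1 percentile (difference -0.23 normal-score units, SE 0.17, limma adjusted p = 0.703). Taken as log2 height relative to the library's median over the 4896 regions, the difference was -0.69 (SE 0.21, limma adjusted p = 0.154). The height of the first region over that of the second, a ratio within each library and chosen after the values were seen, was 0.831, 0.925 and 0.479 in Cgas_KO and 0.736, 0.509 and 0.525 in WT. These ratios overlapped (exact permutation p = 0.4). The maxima of the second region also fell at separate places. They lay at 142290944 to 142291020 in Cgas_KO replicate 1, 142290997 to 142291002 in WT replicate 1 and 142291032 to 142291051 in WT replicate 3. In Cgas_KO replicate 3 and WT replicate 2 they lay at 142291535 to 142291623 and 142291473 to 142291476. The interval of Cgas_KO replicate 2 ran from 142290934 to 142291647.

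Smaller sites filled the rest of the window. The region from 142029726 to 142037286 was called in 3 Cgas_KO and 2 WT lists, at 12, 12 and 9 steps in Cgas_KO and 18 and 13 in WT. The one from 142049525 to 142054259 was called in 3 Cgas_KO lists, at 16, 18 and 9 steps, and in WT replicate 3 at 21. A pair of neighbours before the second shared region, at 142266563 to 142270310 and 142273057 to 142275367, was called in WT replicates 2 and 3 and in no Cgas_KO list. Their heights in WT were 21 and 24 steps for the one and 28 and 20 for the other. They were picked out after their values were seen, and no test can pass with such calls. In the other direction, a Gnas region from 174222668 to 174233050 was called in Cgas_KO replicates 2 and 3 and in no WT list. The peaks were 13 and 10 steps high. They ran from 174225440 to 174233050 and from 174222668 to 174225566, so only their ends overlapped. Their maxima lay apart, at 174228276 to 174228673 and 174223402 to 174223419. No share of all regions is at hand for such calls.

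**Figure D4:**
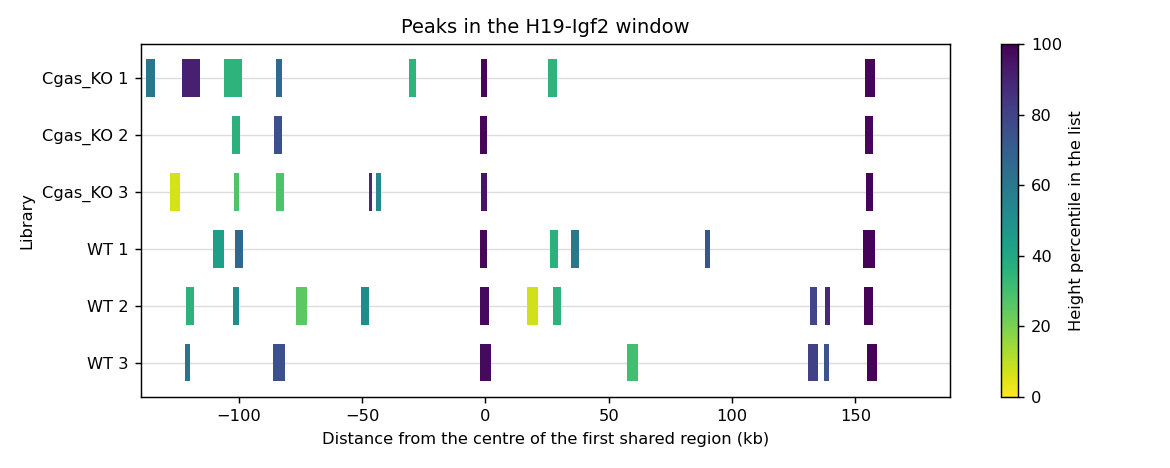
Peaks of each library in the H19-Igf2 window, by distance in kb from the centre of the first shared region, Cgas_KO lists above WT lists. Colour gives the height percentile within the list. Dark peaks of all 6 libraries stand at 0 and near the right end, and the other sites differ from list to list.

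The Rasgrf1 window had 1 strong and sharply placed site. Rasgrf1 encodes an exchange factor that activates Ras and is made from the paternal copy in brain. The site, chromosome 9 from 89707905 to 89712492, was 35, 37 and 33 steps high in Cgas_KO and 68, 59 and 53 in WT. Its percentiles were 95.9, 96.2 and 97.8 in Cgas_KO and 97.5, 97.6 and 96.3 in WT. They overlapped (difference -0.12 normal-score units, SE 0.19, limma adjusted p = 0.863). The midpoints of the 6 intervals of maximum signal lay within 40 bp of one another, the closest among the shared regions. The peaks were 2177, 2109 and 1499 bp wide in Cgas_KO and 3188, 4588 and 2331 bp in WT. By total signal the difference was -1.09 normal-score units (SE 0.31, limma adjusted p = 0.510). The window had 3, 3 and 7 peaks in Cgas_KO and 4, 4 and 3 in WT (exact permutation p = 1.0), and without Cgas_KO replicate 3 the difference in means was -0.667 instead of 0.667 peaks. A weaker site, from 89674536 to 89679309, was called in Cgas_KO replicate 1 at 21 steps and in WT replicates 1 and 2 at 21 and 29.

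The Dlk1-Meg3 window likewise had 1 strong site. Dlk1, a membrane protein of the Notch ligand family, is made from the paternal copy, and Meg3, a long noncoding RNA, from the maternal copy. The site, chromosome 12 from 109402517 to 109406437, was 35, 30 and 25 steps high in Cgas_KO and 55, 53 and 40 in WT. Its percentiles were 95.9, 93.8 and 95.8 in Cgas_KO and 96.5, 97.0 and 93.6 in WT, with overlap (difference -0.14 normal-score units, SE 0.21, limma adjusted p = 0.863). The midpoints of its maxima lay within 93 bp. The window had 4, 1 and 6 peaks in Cgas_KO and 2, 4 and 6 in WT (exact permutation p = 1.0). No other region of this window was called in more than 3 lists.

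The Kcnq1ot1 window had peaks over its first part and few after it. Its tallest region in steps, chromosome 7 from 142703340 to 142710435, was called in 5 lists. It was 28 and 19 steps high in Cgas_KO replicates 1 and 3 and 34, 34 and 40 in WT, and Cgas_KO replicate 2 had no peak there. Where called, its percentiles were 92.7 and 90.4 in Cgas_KO and 90.5, 92.7 and 93.6 in WT. By mean percentile over the lists with a call, the tallest was a region of 1 list, from 142691916 to 142693177. It was at 94.6 and 23 steps in Cgas_KO replicate 3. That library had a peak of the same height and percentile in the region described next. The region from 142621304 to 142627659 was counted in all 6 lists, at 19, 12 and 23 steps in Cgas_KO and 15, 12 and 18 in WT. It was the 1 shared region that was higher in Cgas_KO on average (difference 0.76 normal-score units, SE 0.59, limma adjusted p = 0.713). Its peaks had 0 bp in common, because WT replicate 3 reached the others only through a chain of overlaps, and its maxima spread over 3801 bp. By total signal it was higher in Cgas_KO by 1.19 normal-score units (SE 0.40, limma adjusted p = 0.539). The region from 142638389 to 142642251 was called in Cgas_KO replicate 2 at 23 steps and in WT at 29, 17 and 14. The window had 8, 4 and 3 peaks in Cgas_KO and 4, 10 and 8 in WT (exact permutation p = 0.5).

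The Grb10 window held the shared region with the largest rank difference of the 6. Grb10 is an adaptor that binds the insulin receptor and is made from the maternal copy in most tissues and from the paternal copy in neurons. The region, chromosome 11 from 11920833 to 11927157, was 15, 20 and 10 steps high in Cgas_KO and 41, 34 and 27 in WT. Its percentiles were 60.6, 81.5 and 41.0 in Cgas_KO and 93.6, 92.7 and 84.9 in WT. It was lower in 3 of 3 Cgas_KO libraries than in any WT library. The difference was -1.29 normal-score units (SE 0.35), which missed the threshold after adjustment over all regions (limma adjusted p = 0.382). Of all 4896 regions, 2.21% had an unadjusted p as small or smaller. On the log2 scale the difference was -0.82 (SE 0.24, limma adjusted p = 0.140). By total signal the difference was -0.46 (SE 0.32, limma adjusted p = 0.710). Cgas_KO replicate 3 was the lowest, and without it the difference was -1.03 (limma adjusted p = 0.427). All 6 peaks shared 3150 bp, and the midpoints of the maxima lay within 441 bp.

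Around that region the Grb10 window held 11 regions of 1 list each. Of these, 8 came from Cgas_KO lists and 3 from WT lists. Of the 63 such regions in all windows 32 came from Cgas_KO lists, and over the genome 54.5% of 66366 did. The region from 11812706 to 11815060, called in Cgas_KO replicate 3 alone at 14 steps and percentile 75.9, stood just above the 75.7 that the shared region averaged over the 6 lists. The window had 3, 5 and 3 peaks in Cgas_KO and 1, 2 and 3 in WT (exact permutation p = 0.3). The percentile of its tallest peak was 60.6, 81.5 and 75.9 in Cgas_KO and 93.6, 92.7 and 84.9 in WT (exact permutation p = 0.1, the smallest possible). H19-Igf2 was the other window with no overlap in that measure over all 6 libraries, where 6.75% of 4844 tiles with a peak in every list were lower in Cgas_KO and 9.21% higher.

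**Figure D5:**
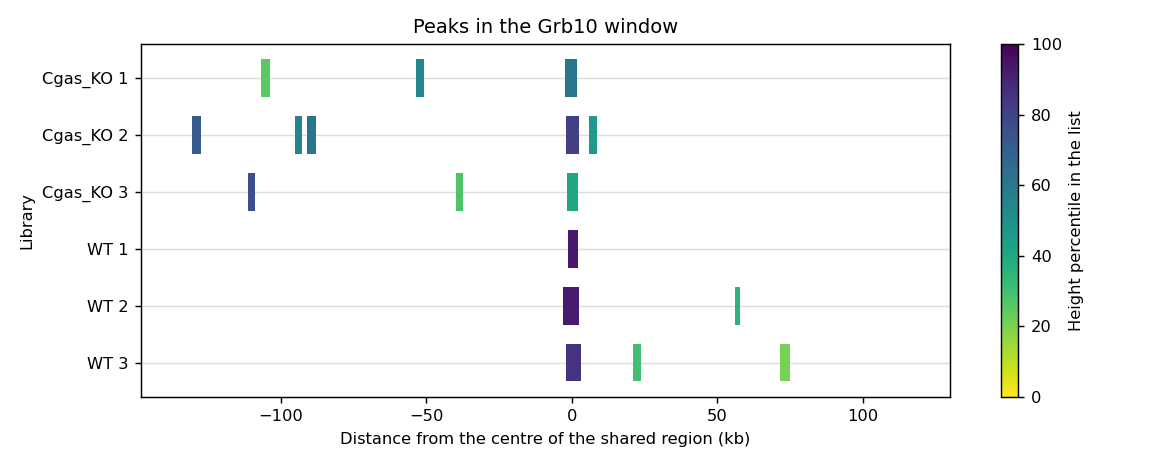
Peaks of each library in the Grb10 window, by distance in kb from the centre of the shared region, Cgas_KO lists above WT lists. Colour gives the height percentile within the list, and the peak at 0 is paler in the Cgas_KO lists (41.0 to 81.5) than in the WT lists (84.9 to 93.6).

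The Gnas window, whose gene encodes the stimulatory G protein alpha subunit from promoters that differ between the parental copies, had no peak above percentile 70.1 of its list. It held 0, 3 and 6 peaks in Cgas_KO and 4, 2 and 4 in WT (exact permutation p = 1.0). Cgas_KO replicate 1 had no peak in it, and without that library the difference in means was 1.17 instead of -0.333 peaks. The most shared region, chromosome 2 from 174150765 to 174155870, was called in 5 lists, at 13 and 9 steps in Cgas_KO replicates 2 and 3 and 16, 15 and 16 in WT. Its percentiles were 46.1 and 28.1 in Cgas_KO and 60.3, 62.8 and 61.9 in WT. The region from 174164061 to 174171724 was called in Cgas_KO replicate 2 at 16 steps and in WT at 11, 10 and 11. These peaks overlapped only in part, and WT replicate 3 had 2 separate peaks there. The Cgas_KO maximum, at 174166497 to 174166593, lay before the starts of the WT replicate 1 and 2 peaks, at 174167310 and 174167067. The tallest peak of the window was at percentile 67.2 and 70.1 in the 2 Cgas_KO lists with a peak and at 60.3, 62.8 and 61.9 in WT. With Cgas_KO replicate 1 dropped for want of a peak, the exact permutation p was 0.1, the smallest possible for 2 against 3. Of 299 tiles with a peak in every list but that one, 14.7% were higher and 5.69% lower in Cgas_KO without overlap. The difference of 6.96 percentiles was 0.0749 by total signal. It was -8.97 (exact permutation p = 0.7) with each list cut to its 27128 peaks of highest total signal. That cut removed the tallest Gnas peak of Cgas_KO replicate 3, at percentile 70.1 by height and 4.83 by total signal. The region highest by mean percentile, from 174136139 to 174138463, was called in Cgas_KO replicate 3 at 13 steps and in WT replicate 1 at 14.

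The Peg3 window had no site that any pair of libraries shared. Its 7 peaks formed 7 regions of 1 list each, 2 from Cgas_KO lists and 5 from WT lists. They were 11 and 8 steps high in Cgas_KO and 9 to 12 in WT, against list medians of 11 to 14 steps over the genome. The highest by percentile, from 6633954 to 6636609, was in WT replicate 1 at 36.2. Cgas_KO replicate 3 had no peak in the window.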

How the data were processed

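CTCF CUT&RUN peak lists, 1 per library, were grouped by the titles in the labels as 3 Cgas_KO and 3 WT. Bowtie2 and SEACR 1.3 were used, per the submitters' processing notes, which name both mm10 and mm39. The sequence names in the lists are those of mm39. The deposited values are the authors' signal per peak, total and maximum. The notes copied into the labels give no peak threshold, control or scaling, so depth and counting error are unknown. Peaks were called per library.

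Peaks sharing 1 bp were merged into regions, and a region belonged to a window when 1 of its peaks did. The 94 regions so held 171 peaks, 1 of them outside the windows, and 4 peaks crossed a window's edge. Maximum signal was a whole number of steps within 0.01 for 100% of peaks under 200 steps. Windows were compared with two-sided exact permutation tests over 20 assignments, and regions in all 6 lists with limma (version 3.58.1 in R 4.3.3), fitted to normal scores of height ranks and Benjamini-Hochberg adjusted over all of them. The fit was tested on simulated data, with shifts larger than any normal-score difference reported here. That check does not show whether differences of the reported size would be found. Figures used matplotlib 3.10.9, and other steps scipy 1.17.1, pandas 2.3.3 and numpy 2.4.6 under Python 3.11.15.

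Windows, regions and lists were chosen with earlier results of these data known. Named were regions in all 6 lists, regions in all 3 lists of 1 genotype only, and the tallest of each window by mean percentile. Others were added after their values were seen. Of 18 motif forms searched, the 2 reported were likewise picked with their matches known. Other imprinted genes were not placed, since no mm39 table was used. Alternatives were lists cut to their 27128 peaks of highest total signal, midpoints inside the window, merging within 500 bp, and 50% coverage of a region by a list's peaks. Further ones were total signal, log2 values, peaks per 1000, a block for replicate number, and each library left out in turn.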

Additional observations from a re-analysis of the deposited data

How the results depend on the processing

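All directions here are Cgas_KO minus WT. Of 203 alternatives of the window differences 187 kept their direction, 4 became 0 (peak counts with midpoints inside the window at Dlk1-Meg3 and Gnas, and at Gnas without WT replicate 1 or 3) and 12 reversed, and of 65 for the 6 shared regions 64 did. No alternative gave a shared region of the windows a limma adjusted p under 0.05. At 50% coverage 2 regions of the windows were in all 6 lists instead of 6 (608 instead of 4896 over the genome). At that coverage 3 were WT-only (2 at Gnas and the shared Rasgrf1 region), though each also held Cgas_KO peaks that covered less of it. Without a library there were 5 to 7 regions in all lists (5202 to 5530 over the genome), 0 to 1 Cgas_KO-only and 0 to 2 WT-only. Fewer lists are required there by construction. No genome share is at hand for these one-genotype counts, so they are not compared. The percentile of the tallest peak turned to 9.14 at Peg3 by total signal, and the cause was not tested. At Gnas it turned to -8.97 with lists cut to 27128 peaks, where Cgas_KO replicate 3 lost its tallest Gnas peak. With a library left out, that percentile difference ranged from -2.26 to 1.40 at Kcnq1ot1 and -1.61 to 0.142 at Dlk1-Meg3. Peak counts ranged from -1.5 to 1 at Dlk1-Meg3, -1.83 to 1.17 at Gnas and -0.667 to 1.33 at Rasgrf1. Covered share ranged from -1.86 to 0.312 percentage points at Dlk1-Meg3 and -2.20 to 1.16 at Gnas. The libraries behind these reversals were Cgas_KO replicates 1 (Gnas), 2 (Kcnq1ot1, Dlk1-Meg3) and 3 (Rasgrf1) and WT replicates 2 and 3 (Dlk1-Meg3). The first H19-Igf2 region ranged from -0.25 to 0.0924 normal-score units. The Grb10 region kept its direction throughout, at -1.60 to -1.03 without a library (limma adjusted p 0.317 to 0.694).

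Deviations of same-numbered libraries were nearly uncorrelated (correlation -0.0169 to -0.0129). Whether same-numbered libraries shared a source is not given by the labels. With the replicate block the Grb10 difference was -1.29 with a limma adjusted p of 0.571, and no call changed. The mean difference of pairs was that of the groups except for the tallest-peak percentile where a library had no peak, -21.99 instead of -16.8 at Peg3 and 6.26 instead of 6.96 at Gnas. The sign-flip test of 3 pairs cannot go below 0.25. The 3 libraries per group and an unknown depth limit all of these comparisons.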
